A study of Mus musculus with 8 samples.

Results

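Genes for enzymes that modify histones and DNA were examined in sorted hair cells of the mouse cochlea that lacked Ndp and in those of wild-type mice. Genes were taken by the start of their symbol (Kdm, Kmt, Setd, Hdac, Dnmt, Tet, Ezh, Ehmt, Nsd, Kat or Sirt followed by a digit), as protein-coding genes on chromosomes 1 to 19, with Sirt1 left out. This gave 68 of the 25343 genes in the deposited table. All 68 had at least 10 normalized counts in at least 4 of the 8 libraries and were compared between genotypes, among 18203 genes that met this limit.

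Ndp KO, the knockout of the Norrie disease protein gene, and WT were each represented by 4 libraries of total RNA. Both genotypes were on a mixed C57BL/6 and 129 background, were collected at postnatal day 4 to 6, and carried the Atoh1-GFP reporter used to sort hair cells. Each tube held 12 to 20 sensory epithelia, so a library was a pool, and the labels used here state neither how many animals were in it nor their sex. Libraries are numbered 1 to 4 within a genotype, values are given in that order, and the numbers pair nothing between genotypes. Values are normalized counts, which are reads divided by 1 size factor per library. Log2 differences are Ndp KO minus WT on log2(normalized count + 1), with the SE of limma, a linear model fitted across all genes.

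Ndp encodes norrin, a secreted protein that binds the receptor Frizzled-4 and activates beta-catenin signalling, and its loss in Norrie disease causes blindness and progressive hearing loss. Histone methyltransferases and acetyltransferases add methyl and acetyl groups to lysines of histone tails, and demethylases, deacetylases and sirtuins remove them. DNA methyltransferases add methyl groups to cytosine, mostly where it precedes guanine, and TET dioxygenases oxidize these groups as a step towards their removal. Methylation of H3K4 and acetylation are found at active promoters and enhancers, methylation of H3K27 and H3K9 at silenced genes, and in the neonatal cochlea these marks are known to accompany the maturation of hair cells and the loss of regenerative capacity in supporting cells.

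The libraries held 35077950 to 48329827 reads, at which a floor of 3 reads was worth 2.34 to 3.49 normalized counts. Ndp had 10.5, 22.6, 66.8 and 45.1 normalized counts in Ndp KO libraries, against 174, 90.4, 114 and 206 in WT libraries. The knockout libraries were all below the WT libraries, with a log2 difference of -2.20 ± 0.56 (SE). Hair cell markers were abundant in both genotypes, at a summed 388888 to 449209 normalized counts over 12 genes in Ndp KO and 372056 to 438250 in WT. Among the 12, 9 were higher and 3 lower in Ndp KO, with a median log2 difference of 0.11 and 1 at an unadjusted p under 0.05. Supporting cell markers were present as well, at a sum of 108670 to 140272 in Ndp KO and 106849 to 164847 in WT, with 7 of 12 lower and 5 higher in Ndp KO and a median log2 difference of -0.09. Of these, 3 (Hes5, Hey1 and Sox2) had an unadjusted p under 0.05, all lower in Ndp KO. Macrophage markers summed to 3819 to 6137 in Ndp KO and 2098 to 5138 in WT, with 11 of 12 higher in Ndp KO and 5 at an unadjusted p under 0.05. Proliferation markers summed to 11282, 3407, 3985 and 3230.3 normalized counts in Ndp KO libraries, against 5667, 4226, 3462 and 2826 in WT libraries, with 10 of 12 higher in Ndp KO and none at an unadjusted p under 0.05. Knockout library 1 stood apart in this sum. Mesenchyme and fibrocyte markers summed to 22905 to 40062 in Ndp KO and 20139.6 to 26790.5 in WT, with 8 of 10 higher in Ndp KO and 3 at an unadjusted p under 0.05. Endothelial markers summed to 3102 to 4491 in Ndp KO and 2722 to 4327 in WT, most of it Egfl7, which differed by 0.12 ± 0.19. Of the 7, 6 were higher in Ndp KO, with a median log2 difference of 1.00 and 1 (Tek) at an unadjusted p under 0.05 by limma. The unadjusted p of Tek was 0.0693 by edgeR and 0.0595 by DESeq2. Cdh5, Tek and Tie1 fell below the floor in at least 1 WT library, so this median rests partly on low values. Glial and neuronal markers summed to 63049 to 74073 in Ndp KO and 65375 to 75150.1 in WT. Among the 9 compared, 6 were higher and 3 lower in Ndp KO, with a median log2 difference of 0.02 and 2 at an unadjusted p under 0.05. Over all genes compared 52.5% were higher in Ndp KO and 5.57% had such a p by limma. The part of the cells marked by these lists in the enzyme differences was not tested. In a sorted bulk sample fewer cells of a type and less RNA per cell cannot be told apart.

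The enzyme genes spanned a wide range of transcript levels in both genotypes. Per kb of exon, which allows genes to be compared roughly, Hdac3 was highest, at 3560.1 ± 190.4 normalized counts per kb in Ndp KO and 3332 ± 323 in WT (SD, n = 4 each). Hdac3 encodes the catalytic subunit of the NCoR and SMRT corepressors. Hdac1, Kdm4b and Hdac2 followed, at 1953 ± 308, 2048 ± 149 and 1628 ± 148 per kb in Ndp KO and 2033 ± 97.2, 1962 ± 648 and 1466 ± 377 in WT. Neighbours among these 3 did not differ beyond their SDs in WT, while Hdac3 stood above them. Next came Kdm1a, at 1147 ± 105 per kb in Ndp KO and 1016 ± 259.9 in WT. At the other end were the de novo DNA methyltransferase gene Dnmt3b, at 8.38 ± 7.04 per kb in Ndp KO and 14.7 ± 4.86 in WT, and Setd1b, at 4.14 ± 1.57 in Ndp KO and 6.76 ± 3.57 in WT. Setd7 ranked 62 of 68 in WT, at 19.7 ± 2.85 per kb in Ndp KO and 38.9 ± 6.73 in WT.

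**Figure D1:**
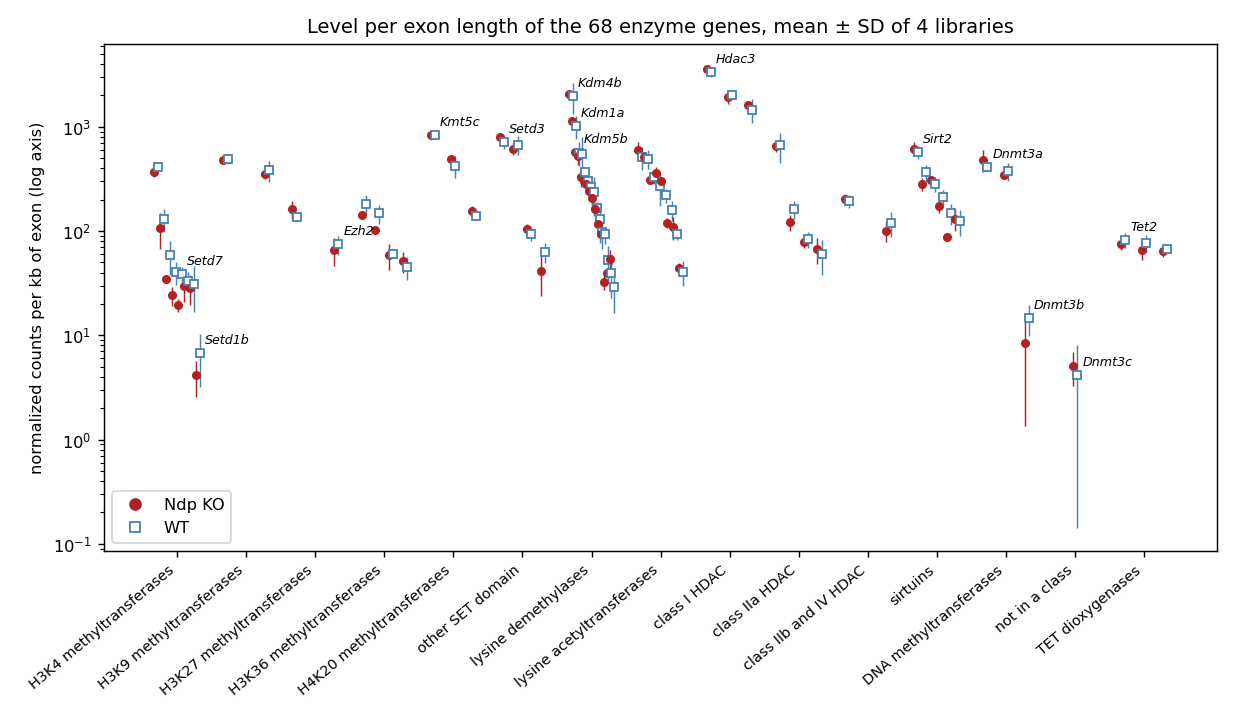
Transcript level of the 68 enzyme genes by class, in normalized counts per kb of exon on a log axis, as the mean of 4 libraries with the SD as a bar, with Ndp KO as filled circles left of WT as open squares. Hdac3, Hdac1, Kdm4b and Hdac2 lie at the top and Dnmt3b, Setd1b and Dnmt3c at the bottom, and the Setd7 symbol of Ndp KO lies below that of WT.

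No enzyme gene passed the threshold of 0.05 for the adjusted p of limma (Benjamini-Hochberg over all genes compared). The same test called 1 gene of all those compared, which is 0.00549%. At an unadjusted p under 0.05, 8 enzyme genes stood out, which is 11.8% of them against 5.57% of all genes compared. Of these, 6 were lower in Ndp KO (2.47% of all genes compared were), namely Setd7, Sirt4, Kmt2a, Setd2, Setd1a and Hdac4, and 2 were higher (3.10% of all genes were), namely Kat8 and Kdm4d. The 4 Ndp KO values and the 4 WT values did not overlap for 4 enzyme genes, or 5.88%, against 3.04% of all genes compared. Setd7, Sirt4 and Setd1a had all Ndp KO values below all WT values (1.58% of all genes compared did), and Kat8 had them above (1.46%). With edgeR's quasi-likelihood test on recovered reads, 0 enzyme genes and 0.00% of all genes passed the adjusted threshold, and 9 enzyme genes had an unadjusted p under 0.05, against 4.55% of all genes. With DESeq2 on the same reads, 1 enzyme gene, Setd7, passed, and 11 had an unadjusted p under 0.05. Those shares were 0.136% and 6.09% over 25078 genes, with no filter on low values, unlike the other shares given here. The 11 of DESeq2 were the 8 of limma with Kat6a, Kdm6b and Nsd1, at an unadjusted p of 0.0320, 0.0297 and 0.0468. The 9 of edgeR held Kat6a and Kdm6b, at 0.0423 and 0.0486, and not Kdm4d, at 0.0558. Log2 differences were negative for 33 enzyme genes and positive for 35, with a median of 0.01, while 47.5% of all genes compared were negative and their median was 0.02.

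**Figure D2:**
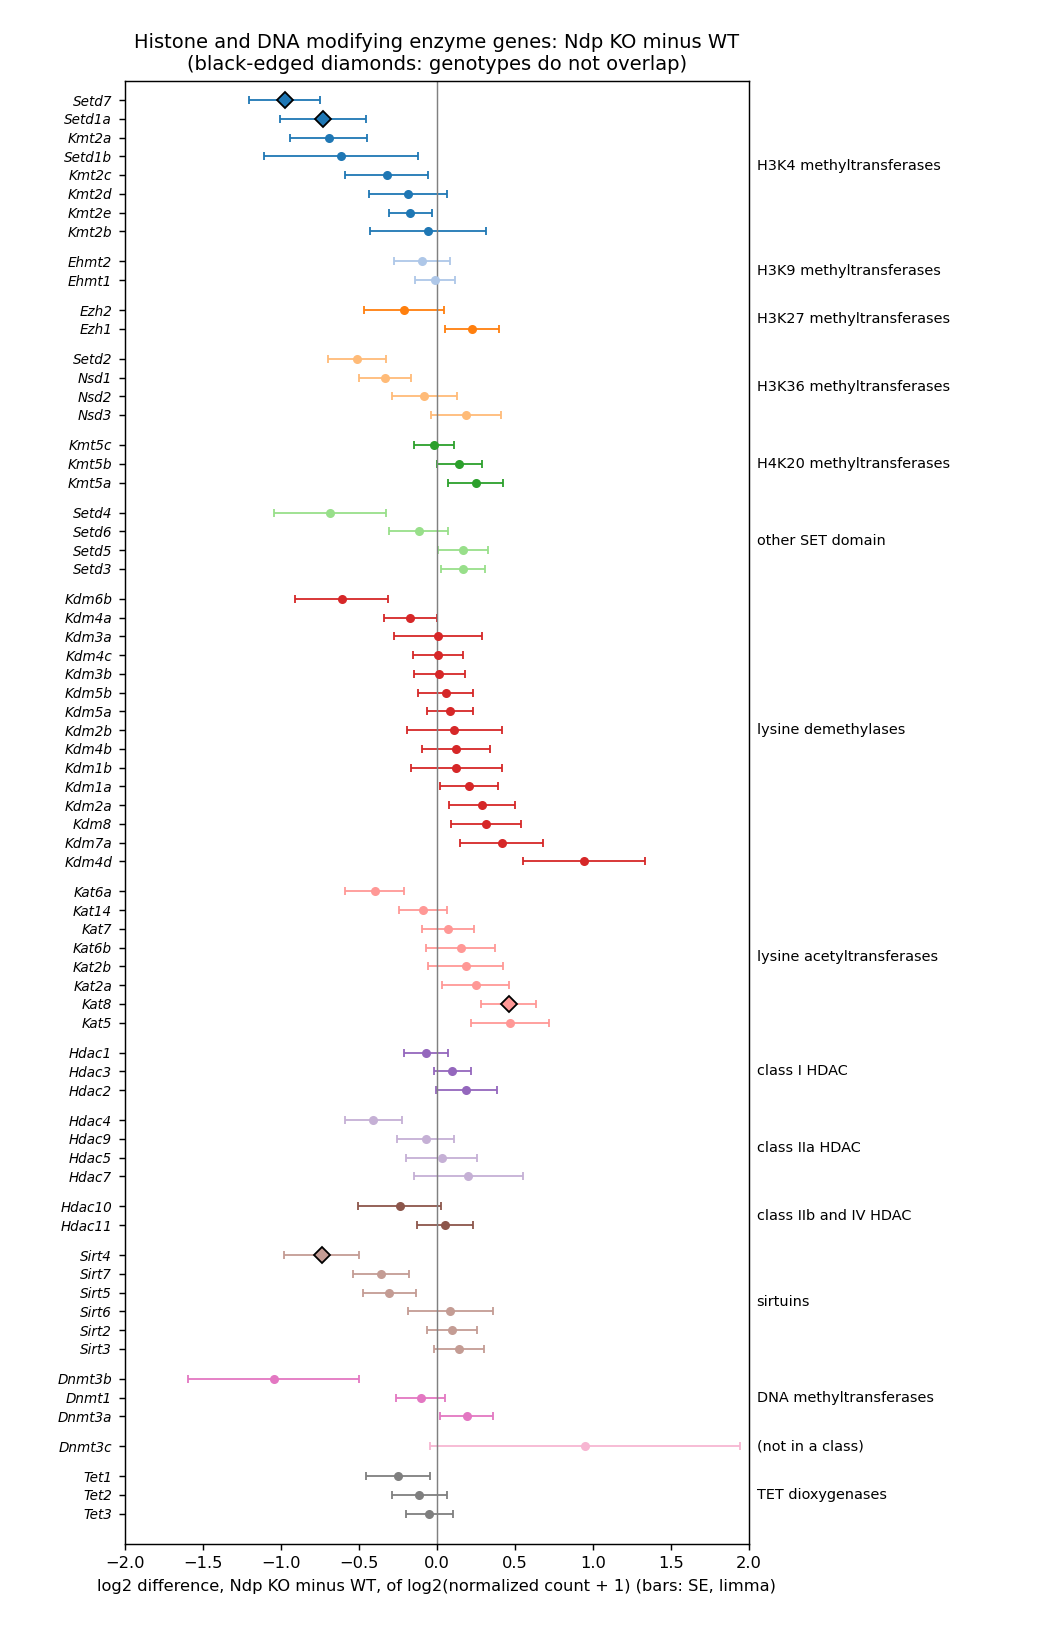
Log2 difference, Ndp KO minus WT, of each of the 68 enzyme genes by class, with the SE of limma as a bar, where genes whose genotypes do not overlap are black-edged diamonds. All 8 H3K4 methyltransferase genes lie left of 0, 13 of 15 lysine demethylase genes lie right of it, and many bars of 1 SE reach 0.

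All 8 H3K4 methyltransferase genes were lower in Ndp KO, against 47.5% of all genes compared, with log2 differences of -0.97 to -0.06 and a median of -0.47. With 1 library left out the median was -0.61 to -0.32. By limma 3 of 8 had an unadjusted p under 0.05, against 5.57% of all genes compared. Setd7, which encodes a methyltransferase that adds a single methyl group to H3K4 and to several non-histone proteins, lies at chr3:51515319-51560879 of mm10 on the minus strand. Setd7 had 176, 233, 243 and 199 normalized counts in Ndp KO libraries, against 515, 338, 414 and 415 in WT libraries. Every knockout library was below every WT library, and the means were 213 ± 30.9 in Ndp KO and 421 ± 72.8 in WT (SD, n = 4 each). The log2 difference was -0.97 ± 0.23 (SE), with an unadjusted p of 0.00135 and an adjusted p of 0.895 by limma over all genes. In the authors' deposited table Setd7 was the 1 enzyme gene with an adjusted p under 0.05, at 0.00633, with an unshrunken log2 fold change of -0.98 ± 0.21 (SE) and a shrunken one of -0.80, Ndp KO over WT. On reads recovered from the authors' own values, DESeq2 run here gave the same adjusted p with all libraries, which is not separate support. Without Ndp KO replicate 1 it gave 0.0670, without Ndp KO replicate 4 it gave 0.0845, and without the library of each genotype with the highest sum of proliferation markers (replicate 1 in both) it gave 0.231. Without any 1 of the other 6 libraries the adjusted p of DESeq2 was 0.000977 to 0.0381. Under the limma alternatives and both count tests the log2 difference of Setd7 lay between -1.12 and -0.79.

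Only 1 date in the library titles occurred in both genotypes, in replicate 2 of each. Within that pair the log2 difference of Setd7 was -0.53, and over the other 6 libraries it was -1.12. Reads of the antisense gene 5031434O11Rik, whose exons overlap those of Setd7 by 131 bp, cannot be told apart from Setd7 reads there, since the library kit does not mark strand. That gene had 114, 65.7, 94.7 and 47.3 normalized counts in Ndp KO libraries, against 61.2, 68.5, 63.9 and 98.8 in WT libraries. The antisense values of the genotypes overlapped, with a log2 difference of 0.08 ± 0.38.

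The sequence upstream of Setd7 is given because Setd7 was the enzyme gene with the smallest p, and that of Kat8 because it was the one whose knockout values were all higher. Both are from RefSeq, build GRCm38.p6, read 5′ to 3′ on the strand of the gene, and end at the last base before the deposited gene start, with CG dinucleotides in capitals.
Setd7 (chr3:51560880-51561073, minus strand): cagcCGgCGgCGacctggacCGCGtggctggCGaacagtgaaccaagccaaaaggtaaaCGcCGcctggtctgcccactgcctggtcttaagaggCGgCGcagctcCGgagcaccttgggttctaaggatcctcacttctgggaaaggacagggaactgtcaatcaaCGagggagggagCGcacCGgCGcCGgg
Kat8 (chr7:127912267-127912515, plus strand): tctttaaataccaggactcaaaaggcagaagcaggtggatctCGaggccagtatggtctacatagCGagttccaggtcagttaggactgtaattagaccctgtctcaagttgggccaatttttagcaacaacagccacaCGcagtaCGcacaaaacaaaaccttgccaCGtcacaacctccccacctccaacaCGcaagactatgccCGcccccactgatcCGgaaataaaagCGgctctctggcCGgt
The stretch upstream of Setd7 is 194 bases with 16 CG dinucleotides, and that of Kat8 is 249 bases with 10. In the full 250 bases before the RefSeq start, Setd7 had 17 CG dinucleotides, a count that 23.5% of all 32851 such windows reach, and Kat8 had 10, which 37.8% reach. RefSeq windows were found for 52 of the 68 enzyme genes, 77 in all, with a median of 18 CG dinucleotides, against 6 over all windows. The letters GGGCGG, the core bound by SP1, were searched on both strands and were present in 48 of the 77 windows (62.3%) against 32.7% of all windows, in that of Kat8 and not in that of Setd7. CCAAT was present in 29 windows (37.7%) against 33.8% of all, again in that of Kat8 and not in that of Setd7. CAGCTG, an E-box that Atoh1 can bind, was present in 10 windows (13.0%), the same share as in all windows, in that of Setd7, past the printed stretch, and not in that of Kat8. TATAAA was present in 1 window (1.30%) against 12.4% of all windows and in neither of these.

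The other H3K4 methyltransferase genes encode the catalytic subunits of COMPASS complexes, except Kmt2e, whose product binds methylated H3K4 and has no clear enzyme activity. Setd1a (chr7:127776670-127800122, plus strand) had 193, 128, 145 and 196 normalized counts in Ndp KO libraries, against 291, 235, 213 and 369 in WT libraries. The genotypes did not overlap, the means were 165 ± 34.3 in Ndp KO and 277 ± 69.5 in WT (SD, n = 4 each), and the log2 difference was -0.73 ± 0.27 with an unadjusted p of 0.0228 and an adjusted p of 0.895 by limma. Kmt2a, the gene of MLL1, had 624, 584, 583 and 530.1 normalized counts in Ndp KO libraries, against 1061, 604, 1429.9 and 842 in WT libraries. The knockout libraries lay close together, while WT libraries 1 and 3 were high and WT library 2 was within the knockout range. The log2 difference of Kmt2a was -0.69 ± 0.25, with an unadjusted p of 0.0180 by limma, but within the pair of the shared title date it was -0.05. By DESeq2 its adjusted p was 0.342 with all libraries, 0.00541 without WT replicate 2 and 0.0301 without both libraries of the shared date. Both settings, chosen after seeing the data, drop the WT library that was within the knockout range, so the lower p is not separate support. Under the other omissions the adjusted p of Kmt2a by DESeq2 was 0.286 to 0.853. Kmt2e, the most abundant of the class, had 3802, 4217, 4069 and 3307 normalized counts in Ndp KO libraries, against 4770.4, 3620.3, 4494 and 4444 in WT libraries. Its genotypes overlapped, with a log2 difference of -0.17 ± 0.14. Kmt2c, Kmt2d, Kmt2b and Setd1b were -0.32 ± 0.27, -0.18 ± 0.25, -0.06 ± 0.37 and -0.61 ± 0.49, each with overlapping libraries. Within the pair of the shared title date Kmt2e was higher in Ndp KO, at 0.22. Over the other 6 libraries Kmt2b was higher, at 0.12, and the rest of the class was lower in each set. Summed over the class, the libraries held 7890.1, 7277, 9487 and 6994 normalized counts in Ndp KO libraries, against 10243, 8279, 11403 and 8957 in WT libraries. Knockout library 3, the highest of its genotype, was above WT libraries 2 and 4.

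**Figure D3:**
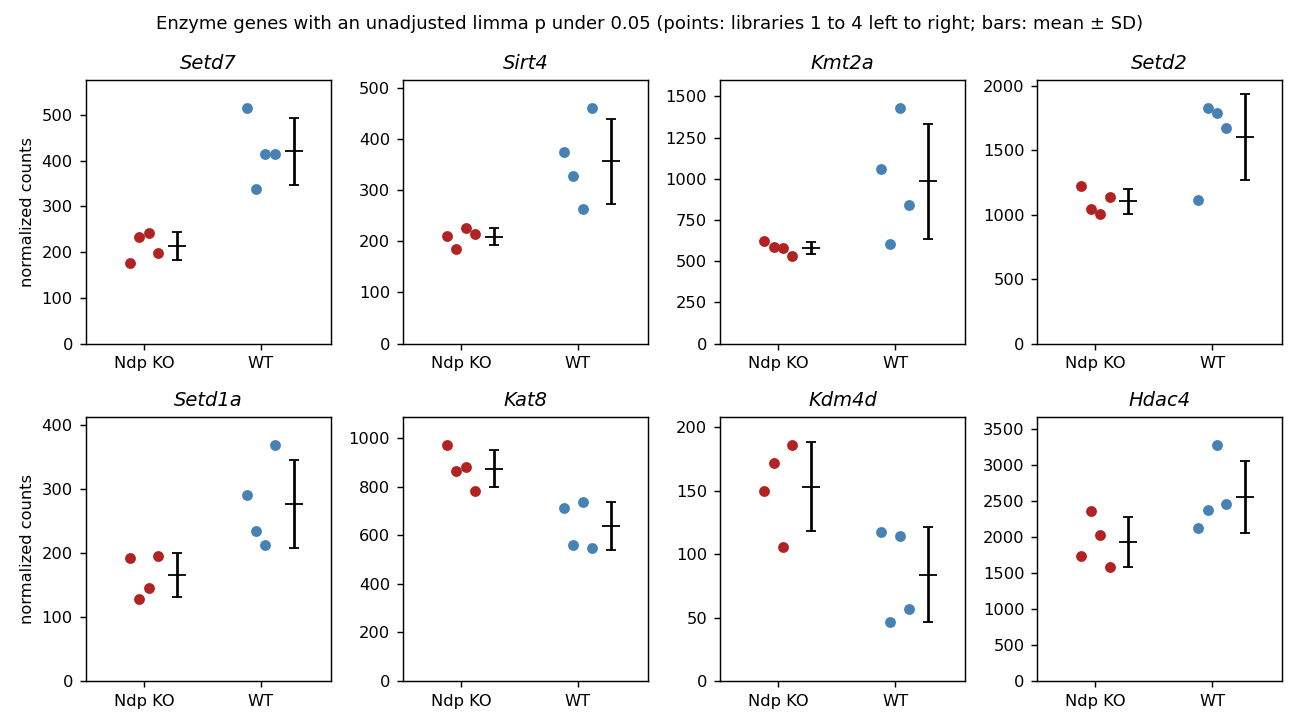
Normalized counts of the 8 enzyme genes with an unadjusted limma p under 0.05 in each library, Ndp KO left of WT, with bars for the mean ± SD of 4 libraries. Setd7, Sirt4 and Setd1a have all knockout points below all WT points, Kat8 has them above, and for Kmt2a, Setd2, Kdm4d and Hdac4 at least 1 WT point lies within the knockout range.

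Among the H3K36 methyltransferase genes 3 of 4 were lower in Ndp KO, with a median log2 difference of -0.21 (-0.27 to -0.13 with 1 library left out). By limma 1 of 4 had an unadjusted p under 0.05, against 5.57% of all genes compared. Setd2, whose product adds the third methyl group to H3K36 along transcribed genes, had 1219.8, 1041, 1007 and 1139 normalized counts in Ndp KO libraries, against 1109.7, 1827, 1789 and 1673 in WT libraries. WT library 1 lay among the knockout libraries, and the other WT libraries were all higher. The log2 difference was -0.51 ± 0.19, with an unadjusted p of 0.0191 and an adjusted p of 0.895 by limma. By DESeq2 the adjusted p was 0.390 with all libraries. It was 0.00133 without WT replicate 1 and 0.0116 without replicate 1 of both genotypes, which had the highest proliferation sums. Both settings, chosen after seeing the data, drop the WT library that lay among the knockout libraries, so the lower p is not separate support. Under the other omissions the adjusted p of Setd2 by DESeq2 was 0.336 to 0.920. Nsd1, whose product adds up to a pair of methyl groups to H3K36, had 2329, 2533, 2708 and 2426 normalized counts in Ndp KO libraries, against 3101, 2338, 3407 and 3920.5 in WT libraries. WT library 2 was within the knockout range, and the log2 difference was -0.33 ± 0.17, with an unadjusted p of 0.0747 by limma. Nsd2 and Nsd3 were -0.08 ± 0.21 and 0.19 ± 0.23. Over all 23 genes of the histone methyltransferase families, 17 were lower in Ndp KO and 6 higher, with a median of -0.12 and 4 at an unadjusted p under 0.05. Over all genes compared 47.5% were lower and 5.57% had such a p by limma.

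The genes of the H3K27, H3K9 and H4K20 methyltransferases showed small differences, and 0 of 7 had an unadjusted p under 0.05 by limma. Ezh2, a catalytic subunit of the Polycomb complex PRC2 that is typical of dividing cells, had 632, 431, 372 and 327 normalized counts in Ndp KO libraries, against 623, 528, 373 and 480.2 in WT libraries. Library 1 was the highest in each genotype, as it was for the sum of proliferation markers, and the log2 difference was -0.21 ± 0.25. Ezh1, its counterpart in cells that no longer divide, had 1066, 1053, 1555 and 1145 normalized counts in Ndp KO libraries, against 897, 1138, 1025 and 1015 in WT libraries. Its level exceeded that of Ezh2 in both genotypes, at 162 ± 31.8 per kb of exon against 65.9 ± 20.1 in Ndp KO and 137 ± 13.2 against 75.0 ± 15.5 in WT, and its log2 difference was 0.23 ± 0.17. Ehmt1 and Ehmt2, whose products form the GLP and G9a methyltransferase of H3K9, differed by -0.01 ± 0.13 and -0.10 ± 0.18. Ehmt1 had 4375, 3489.7, 3889 and 3978 normalized counts in Ndp KO libraries, against 4288, 3778, 4272 and 3518 in WT libraries. Of the H4K20 methyltransferase genes, Kmt5a, whose product adds the first methyl group, had 2785, 2540.3, 2659 and 2461 normalized counts in Ndp KO libraries, against 1889, 2767, 2594 and 1714 in WT libraries. WT libraries 1 and 4 were below all knockout libraries and the other two were within their range, with a log2 difference of 0.25 ± 0.17. Kmt5c, the most abundant of these, had 2995, 3154, 3800.2 and 3333 normalized counts in Ndp KO libraries, against 3308, 3559, 3321 and 3214 in WT libraries, a log2 difference of -0.02 ± 0.13 and, at 7.43% over all 8 libraries, the lowest coefficient of variation of the 68 genes. Kmt5b differed by 0.15 ± 0.14.

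Of 4 other genes of SET domain proteins, 2 were lower and 2 higher in Ndp KO, and none had an unadjusted p under 0.05 by limma. Setd3, whose product methylates a histidine of actin, was the most abundant, with 4527, 4490.1, 5357 and 4972 normalized counts in Ndp KO libraries, against 4155, 5201, 4305 and 3651 in WT libraries. Its genotypes overlapped, with a log2 difference of 0.17 ± 0.14. Setd4, Setd5 and Setd6 were -0.69 ± 0.36, 0.17 ± 0.16 and -0.12 ± 0.19, and Setd4 had its lowest value in knockout library 3.

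Among lysine acetyltransferase genes 6 of 8 were higher in Ndp KO, against 52.5% of all genes compared, with a median log2 difference of 0.17. By limma 1 of 8 had an unadjusted p under 0.05, against 5.57% of all genes compared. With 1 library left out the median was 0.07 to 0.27, lowest without WT replicate 4. Kat8 (chr7:127912516-127925837, plus strand), which encodes the histone H4 acetyltransferase MOF of the MSL and NSL complexes, had 969.9, 866, 879 and 781 normalized counts in Ndp KO libraries, against 711, 561, 737 and 545 in WT libraries. All knockout libraries were above all WT libraries, with means of 874 ± 77.4 in Ndp KO and 639 ± 99.1 in WT (SD, n = 4 each). The log2 difference was 0.46 ± 0.18, with an unadjusted p of 0.0242 and an adjusted p of 0.895 by limma, and it was 0.62 within the pair of the shared title date. Setd1a ends 112394 bp before Kat8 starts, on the same strand of chromosome 7, and the genes differed in opposite directions. Exons of Prss8, on the other strand, overlap those of Kat8 by 122 bp, and Prss8 differed by -0.21 ± 0.17. Kat7, the most abundant of the class, whose product acetylates histone H3 as HBO1, had 2826, 2591, 3352 and 2647 normalized counts in Ndp KO libraries, against 2308, 3538, 2620.5 and 2493 in WT libraries. Its log2 difference was 0.07 ± 0.16. Kat5, the gene of TIP60, was 0.47 ± 0.25 with an unadjusted p of 0.0873 by limma, but -0.33 within the pair of the shared title date and 0.74 over the other 6 libraries. Kat6a had an unadjusted p of 0.0568 by limma, with a log2 difference of -0.40 ± 0.19. Kat2a, Kat2b, Kat6b and Kat14 were 0.25 ± 0.22, 0.19 ± 0.24, 0.15 ± 0.22 and -0.09 ± 0.15.

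Among lysine demethylase genes 13 of 15 were higher in Ndp KO, against 52.5% of all genes compared, with a median log2 difference of 0.11. By limma, though, 1 of 15 had an unadjusted p under 0.05, against 5.57% of all genes compared. Without WT replicate 4 the median was -0.05. Kdm4d, whose product removes methyl groups from H3K9, had 149.7, 172, 106 and 186 normalized counts in Ndp KO libraries, against 117, 46.6, 115 and 57.0 in WT libraries. Knockout library 3 was below WT libraries 1 and 3, and the means were 153 ± 35.1 in Ndp KO and 83.8 ± 37.3 in WT (SD, n = 4 each). The log2 difference was 0.95 ± 0.39, with an unadjusted p of 0.0346 and an adjusted p of 0.895 by limma. Kdm4d has a near copy, Kdm4dl, so the division of reads between them is uncertain. Kdm6b, the gene of the H3K27 demethylase JMJD3, differed most in the other direction, with 209, 276, 192 and 232 normalized counts in Ndp KO libraries, against 392, 292, 222 and 549 in WT libraries. WT library 3 was within the knockout range, and the log2 difference was -0.61 ± 0.30 with an unadjusted p of 0.0665 by limma. Without WT replicate 4, the highest library, it was -0.38. Kdm1a, the gene of the H3K4 demethylase LSD1 found in the CoREST complex, had 5848, 5949, 6646 and 5327 normalized counts in Ndp KO libraries, against 4685, 6229, 6502 and 3640.3 in WT libraries. WT libraries 1 and 4 were below all knockout libraries, the other two were within their range, and the log2 difference was 0.21 ± 0.19. Kdm4b, the most abundant of the class, had 9723, 10891, 10279 and 9198 normalized counts in Ndp KO libraries, against 7997, 11838, 12644 and 5945 in WT libraries. The same WT libraries 1 and 4 were below all knockout libraries while WT libraries 2 and 3 were above them, and the log2 difference was 0.12 ± 0.22.

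The spread of the demethylase genes was wider in WT than in Ndp KO, as was that of 70.5% of all genes compared. Summed over the class, the libraries held 44469, 45513, 46585 and 42409 normalized counts in Ndp KO libraries, against 35637, 50658, 53725 and 32178 in WT libraries. The knockout sums lay between those of WT libraries 1 and 4 on one side and WT libraries 2 and 3 on the other, with means of 44744 ± 1780.0 in Ndp KO and 43049 ± 10724 in WT (SD, n = 4 each). The SD of the log2 values was larger in WT for 12 of the 15 genes, with a median SD of 0.19 in Ndp KO and 0.41 in WT. Over all 68 enzyme genes the SD was larger in WT for 51 (75.0%), with a median of 0.19 in Ndp KO and 0.31 in WT, while over all genes compared it was larger in WT for 70.5%, with a median of 0.28 in Ndp KO and 0.44 in WT. WT library 3 held the highest value for 20 enzyme genes (29.4%, against 15.9% of all genes) and WT library 4 the lowest for 20 (29.4%, against 20.0% of all genes). Among the demethylase genes not given library by library, Kdm3a, Kdm3b, Kdm4c, Kdm5a, Kdm5b, Kdm2b and Kdm1b lay between 0.01 and 0.13, Kdm2a, Kdm8 and Kdm7a at 0.29, 0.32 and 0.42, and Kdm4a at -0.17.

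**Figure D4:**
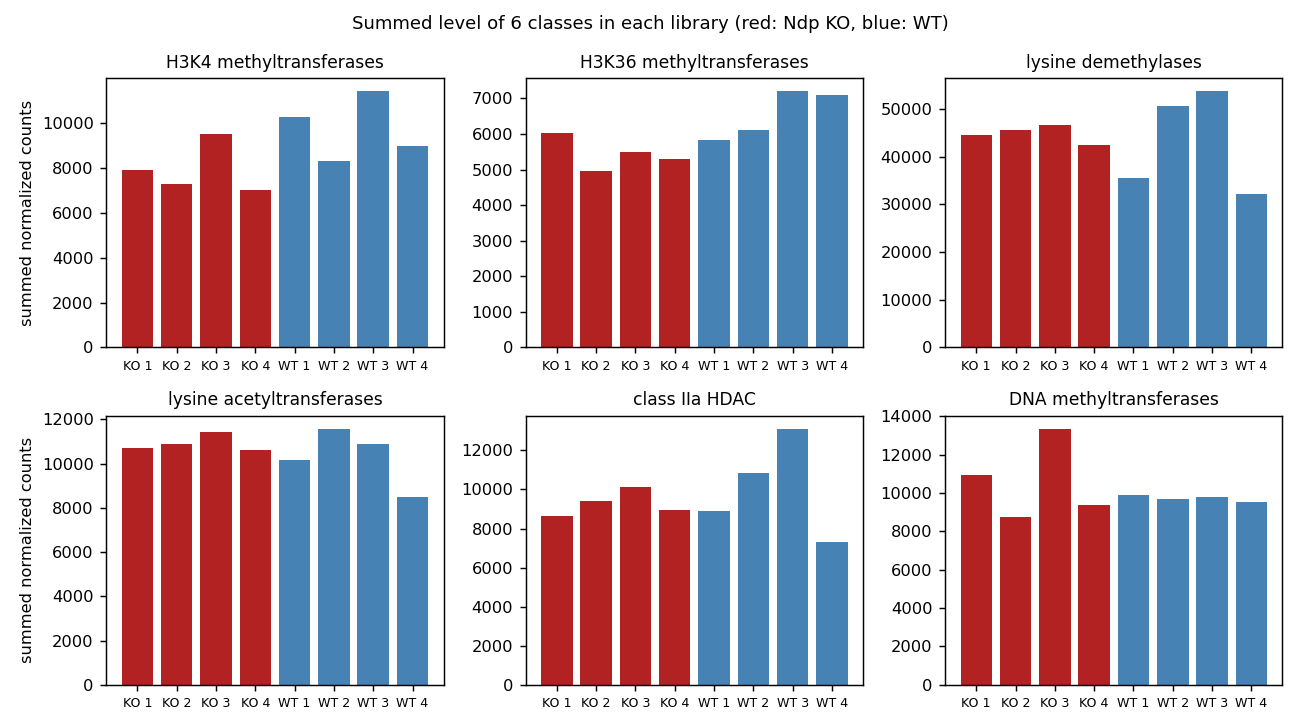
Summed normalized counts of 6 enzyme classes in each library, Ndp KO libraries in red left of WT libraries in blue, on axes that start at 0. The demethylase bars of WT libraries 1 and 4 are below and those of WT libraries 2 and 3 above all knockout bars, and the highest DNA methyltransferase bar is knockout library 3.

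The class I histone deacetylase genes, which encode the main nuclear deacetylases, were among the most abundant enzyme genes, and none had an unadjusted p under 0.05 by limma. Hdac1, whose product works with that of Hdac2 in the NuRD, SIN3 and CoREST complexes, had 5145, 7397, 7154 and 7216 normalized counts in Ndp KO libraries, against 7057, 7451, 6705 and 6795 in WT libraries. Knockout library 1 was below the other 7, and the log2 difference was -0.07 ± 0.14. Hdac2 had 7325, 8189.7, 6667 and 6945 normalized counts in Ndp KO libraries, against 6732, 7408, 7953 and 4144 in WT libraries. WT library 4 was below the other 7, and the log2 difference was 0.19 ± 0.20. Hdac3 had 13931, 15470.3, 14561 and 13768 normalized counts in Ndp KO libraries, against 14122, 14803, 11753 and 13359 in WT libraries and differed by 0.10 ± 0.12, with overlapping genotypes.

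Of the class IIa deacetylase genes, whose products shuttle between nucleus and cytoplasm and bind MEF2 factors, 1 of 4 had an unadjusted p under 0.05 by limma. Of all genes compared 5.57% had such a p. Hdac4 had 1730.0, 2363, 2022 and 1575 normalized counts in Ndp KO libraries, against 2116, 2365, 3269 and 2460.2 in WT libraries. Knockout library 2 was within the WT range and nearly equal to WT library 2, the library of the same title date. Over the other 6 libraries the log2 difference was -0.54, and over all 8 it was -0.41 ± 0.18, with an unadjusted p of 0.0475 and an adjusted p of 0.895 by limma. The exons of Hdac4 overlap the antisense gene Gm26720 by 3536 bp, and that gene averaged 26.0 ± 21.8 in Ndp KO and 16.0 ± 10.1 in WT (SD, n = 4 each). Hdac5, the most abundant of the class, had 5414, 5384, 6805 and 5379 normalized counts in Ndp KO libraries, against 5422, 6568, 7918 and 3473 in WT libraries. WT libraries 3 and 4 were the highest and lowest of all 8, with a log2 difference of 0.03 ± 0.23. Hdac7 and Hdac9 were 0.20 ± 0.35 and -0.07 ± 0.18. Of the remaining classes, Hdac11, the class IV gene, had 853, 814, 822 and 632 normalized counts in Ndp KO libraries, against 844, 832, 719.6 and 617 in WT libraries with a log2 difference of 0.05 ± 0.18, and the class IIb gene Hdac10, whose product deacetylates polyamines, differed by -0.24 ± 0.27.

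Sirtuins are deacylases that need NAD, and of their genes 3 of 6 were lower and 3 higher in Ndp KO. Sirt4 (chr5:115478010-115484725, minus strand), which encodes a mitochondrial sirtuin, had 211, 185, 226 and 214 normalized counts in Ndp KO libraries, against 374, 327, 263 and 460.4 in WT libraries. The genotypes did not overlap, and the means were 209 ± 17.0 in Ndp KO and 356 ± 83.2 in WT (SD, n = 4 each). The log2 difference was -0.74 ± 0.24, with an unadjusted p of 0.0104 and an adjusted p of 0.895 by limma, and it was -0.81 within the pair of the shared title date. In the authors' deposited table its adjusted p was 0.188, with an unshrunken log2 fold change of -0.77 ± 0.23 (SE). On the recovered reads DESeq2 run here gave the same adjusted p with all libraries, which again is not separate support. It gave 0.0222 without WT replicate 3, the lowest WT library. That setting, chosen after seeing the data, drops the WT library nearest to the knockout libraries, so the lower p is not separate support. Under the other omissions the adjusted p of Sirt4 by DESeq2 was 0.116 to 0.753. Sirt2, the most abundant sirtuin gene, whose product deacetylates tubulin, had 2904, 3732, 3136 and 2608 normalized counts in Ndp KO libraries, against 3196, 3221, 2324 and 2814 in WT libraries. Its log2 difference was 0.10 ± 0.16, with overlapping genotypes. The genes of the other mitochondrial sirtuins differed by 0.14 ± 0.16 for Sirt3 and -0.30 ± 0.17 for Sirt5. Those of the nuclear sirtuins differed by 0.09 ± 0.27 for Sirt6 and -0.36 ± 0.18 for Sirt7, which had an unadjusted p of 0.0698 by limma.

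None of the DNA methyltransferase or TET genes had an unadjusted p under 0.05 by limma. Dnmt1, the maintenance enzyme that copies methylation after replication, had 2489, 2446, 2739 and 2493 normalized counts in Ndp KO libraries, against 2362, 3062, 3374 and 2274 in WT libraries. WT libraries 2 and 3 were above and WT libraries 1 and 4 below all knockout libraries, and the log2 difference was -0.10 ± 0.16. Dnmt3a, a de novo enzyme with a large role in neurons, was the most abundant of the 3 classed genes, with 8378, 6262, 10589 and 6855 normalized counts in Ndp KO libraries, against 7477, 6585, 6322 and 7186 in WT libraries. Knockout library 3 was the highest, and the log2 difference was 0.19 ± 0.17. Dnmt3b, the other de novo enzyme, had 95.9, 16.7, 28.9 and 29.7 normalized counts in Ndp KO libraries, against 69.7, 47.5, 108 and 75.6 in WT libraries. Knockout library 1, the one with the highest proliferation sum, was within the WT range while the other knockout libraries were below all WT libraries, and the log2 difference was -1.05 ± 0.55 with an unadjusted p of 0.0836 by limma. In WT the proliferation sum was highest in library 1, while Dnmt3b was highest in library 3. Dnmt3c, known in mice as an enzyme of male germ cells, had 6.33, 15.7, 13.5 and 9.90 normalized counts in Ndp KO libraries, against 19.0, 3.65, 0 and 14.0 in WT libraries. It is a near copy of Dnmt3b at levels close to the floor, so its values are uncertain. Summed over Dnmt1, Dnmt3a and Dnmt3b, the libraries held 10963, 8725, 13357 and 9378 normalized counts in Ndp KO libraries, against 9908, 9694, 9804 and 9536 in WT libraries.

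All 3 TET genes were slightly lower in Ndp KO, each with overlapping genotypes. Tet1 had 1108, 742, 1191 and 987 normalized counts in Ndp KO libraries, against 1292, 1252, 1345 and 885 in WT libraries, with a log2 difference of -0.25 ± 0.20. Tet2 had 1380.0, 1451, 1112 and 1155 normalized counts in Ndp KO libraries, against 1409.6, 1075, 1628 and 1419.6 in WT libraries, with -0.11 ± 0.17. Tet3 had 1242, 928, 1086 and 1060.3 normalized counts in Ndp KO libraries, against 1148, 1082, 1163 and 1055 in WT libraries, with -0.05 ± 0.15. Per kb of exon the 3 genes were at like levels, 65.1 ± 12.6, 75.5 ± 9.86 and 64.6 ± 7.72 in Ndp KO and 77.2 ± 13.5, 82.0 ± 13.5 and 66.6 ± 3.12 in WT.

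The exon length of each gene was set beside these differences, since several methyltransferase genes have long transcripts. Of the 25 enzyme genes with at least 10 kb of exon, 14 were lower in Ndp KO (56.0%), with a median log2 difference of -0.07, and 4 had an unadjusted p under 0.05, all lower. Of the 43 shorter ones 19 were lower (44.2%), with a median of 0.03, and 4 had an unadjusted p under 0.05, 2 of them lower. Over all genes compared 47.5% of the 1458 long ones were lower, with a median of 0.02, and 95 had an unadjusted p under 0.05, 59 of them lower. For the 16726 shorter ones 47.5% were lower, with a median of 0.02, and 918 had an unadjusted p under 0.05, 390 of them lower. The part of length in the differences was not tested.

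Partners of these enzymes were counted in the same fit. Over 97 partner genes in 6 lists 0 passed the adjusted threshold of limma, 5 (5.15%, against 5.57% of all genes compared) had an unadjusted p under 0.05, all lower in Ndp KO, and the median log2 difference was -0.01. The genotypes did not overlap for 3 of them, against 3.04% of all genes compared. They were Chd4 at -0.25 ± 0.13, Ash1l, given below, and Riox2 at 0.20 ± 0.14, of which Chd4 and Riox2 were chosen after their values were seen. For COMPASS, the complexes around the KMT2 and SETD1 enzymes, 0 of 12 partner genes had an unadjusted p under 0.05, the smallest p values being those of Men1 at 0.21 ± 0.13 and Pagr1a at -0.78 ± 0.79. The same held for 0 of 10 PRC2 partners, with Suz12 at 0.30 ± 0.27 and Phf19 at -0.71 ± 0.72, and for 0 of 13 readers of DNA methylation and repair genes, with Zbtb33 at -0.82 ± 0.46 and Mbd2 at 0.18 ± 0.15. Of 19 HDAC corepressor genes 2 had an unadjusted p under 0.05, the NuRD genes Chd3 and Gatad2b. Chd3, a nucleosome remodeller, had 310.0, 383, 463 and 393 normalized counts in Ndp KO libraries, against 451, 504, 599 and 608 in WT libraries. Knockout library 3 was above WT library 1, and the log2 difference was -0.48 ± 0.20, against -0.46 ± 0.20 for Gatad2b.

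Of 20 genes of acetyltransferase complexes 1 had an unadjusted p under 0.05, the scaffold gene Brpf3, with 192, 131, 153 and 121 normalized counts in Ndp KO libraries, against 156, 426, 257 and 612 in WT libraries. WT library 1 was within the knockout range and WT libraries 2 and 4 were far above it, with a log2 difference of -1.12 ± 0.40. Ing3, the next gene of this list, differed by -0.34 ± 0.21. Of 23 genes of enzymes of the same reactions under other names 2 had an unadjusted p under 0.05, Ash1l and Smyd5. Ash1l, which encodes an H3K36 methyltransferase, had 2057, 2074, 1819.8 and 1732 normalized counts in Ndp KO libraries, against 2804, 2107, 2559 and 2633 in WT libraries. All knockout libraries were below all WT libraries, though knockout library 2 and WT library 2 of the shared date were close, with a log2 difference of -0.39 ± 0.14, an unadjusted p of 0.0200 and an adjusted p of 0.895 by limma. Smyd5 differed by -0.41 ± 0.18.

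The naming rule (an unadjusted p under 0.05, no overlap, a fixed list or the highest level of a class) chose 32 of the enzyme genes. The 36 others had log2 differences of -0.69 to 0.95, the highest being that of Dnmt3c, and unadjusted p values by limma of 0.0568 or more. The coefficient of variation over all 8 libraries had a median of 20.1% over the enzyme genes, against 27.6% over all genes compared. Opposite-strand genes overlap the exons of 22 of the 68 enzyme genes in GENCODE M21, and same-strand genes those of 2, where reads of the overlapping parts cannot be told apart.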

How the data were processed

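The authors deposited 1 table of normalized counts (a signal per gene and library, reads divided by a size factor), with their own shrunken and unshrunken log2 fold changes, scores (test statistics) and p-values, per the file headers. Named in the submitters' processing notes, with no role, are mm10 and the tools DESeq2 1.26.0, Salmon 0.14.2 and bcl2fastq 2.20. Per the labels' protocols, RNA of sorted cells was made into full-length cDNA (SMART-Seq v4) and Nextera XT libraries, a kit that does not mark strand.

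Dividing by each library's step recovered whole reads for 100% of 202744 values (tolerance 1e-06). The sources used here do not give whether these were counted or rounded estimates, and floors of 3 reads cover counting error only. The comparison was limma 3.58.1 (R 4.3.3) with an intensity trend on log2(normalized count + 1), two-sided, adjusted by Benjamini-Hochberg over 18203 genes with at least 10 normalized counts in at least 4 libraries. Adding 1 understates the changes of low genes. Alternatives were edgeR 4.0.16 and DESeq2 1.42.0 on recovered reads, other filters, pseudocounts and scaling, and libraries left out. The fit was tested on simulated data. Groups came from genotype labels, and nothing states that libraries are separate litters, so p-values measure the spread between these libraries. Exon lengths were those of all annotated exons of a gene in GENCODE M21, merged. They can exceed the length of the transcripts present, so levels per kb compare genes only roughly.

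The enzyme genes, their classes, the partner lists and the markers were chosen with earlier results of these data known. By the naming rule, values by library are given for genes with an unadjusted p under 0.05 or without overlap, for 12 fixed genes (Ezh2, Dnmt1, Dnmt3a, Dnmt3b, Tet1, Tet2, Tet3, Kmt5a, Hdac1, Hdac2, Kdm6b and Kdm1a), and for the most abundant gene of each class, and for the 2 partners of each list with the smallest p the difference is given. Nsd1 is the most abundant H3K36 gene. Values of Dnmt3c were added after they were seen.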

Additional observations from a re-analysis of the deposited data

Results flagged for a closer look

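In 4 of 64 sets of 4 libraries (the 32 enzyme genes chosen by the naming rule, in each genotype), 1 library lay far from the other 3 by Dixon's test at the 95% level, where chance flags about 1 in 20 sets. All 4 were Ndp KO libraries. Hdac1 was lowest in Ndp KO library 1, at 5145 normalized counts, while the other knockout libraries had 7154 to 7397. Dnmt3b was highest in the same library, at 95.9, against 16.7 to 29.7 in the other 3, and that library also held the highest sum of proliferation markers, 11282. In WT that sum was highest in library 1, at 5667, where Dnmt3b had 69.7, and Dnmt3b was highest in library 3, at 108. Dnmt1 was highest in Ndp KO library 3, at 2739, against 2446 to 2493, and Hdac5 was highest there too, at 6805, against 5379 to 5414.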

How the results depend on the processing

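The count of genes called by limma was 1. It was 0 with a pseudocount of 0.1, with a minimum of 50 normalized counts, without both libraries of the shared title date and without the 2 libraries of highest proliferation sum (chosen after seeing the data), 3 without the intensity trend and 0 to 2 with 1 library left out. It was 0 with edgeR (828 genes at an unadjusted p under 0.05) and 34 with DESeq2. Enzyme genes called were 0 under every limma and edgeR setting and 1 with DESeq2, and partner genes called were 0 under these settings. DESeq2 with libraries left out (chosen after seeing the data) called 0 to 2 enzyme genes among Setd7, Sirt4, Kmt2a and Setd2, and 28 to 233 genes in all. The median log2 difference of the enzyme genes was 0.01, and -0.086 to 0.071 with 1 library left out, -0.086 being without WT replicate 4. Of the 32 enzyme genes chosen by the naming rule (Dnmt3c is not among them), 22 kept the sign of their log2 difference under all 18 alternatives. The others, all within 0.19 of 0, changed sign. Without the shared date Ehmt1 was 0.024, Kmt5c 0.034 and Tet3 0.0076, Hdac1 was 0.057, Kat7 -0.0025 and Kmt5c 0.024 without the libraries of highest proliferation sum, and Hdac5 was -0.031 with edgeR and -0.025 with DESeq2. With 1 library left out the ranges that crossed 0 were -0.067 to 0.045 for Ehmt1, -0.12 to 0.052 for Hdac1, -0.039 to 0.15 for Hdac11, -0.017 to 0.30 for Hdac2, -0.20 to 0.20 for Hdac5, -0.0086 to 0.20 for Kat7, -0.086 to 0.28 for Kdm4b, -0.084 to 0.030 for Kmt5c, -0.0013 to 0.18 for Sirt2 and -0.12 to 0.020 for Tet3. Ranges that kept their sign but moved by over 1.5 times were -0.82 to -0.38 for Kdm6b, 0.048 to 0.30 for Dnmt3a, -0.19 to -0.0021 for Dnmt1, 0.044 to 0.32 for Kdm1a, 0.099 to 0.29 for Ezh1, -0.40 to -0.081 for Ezh2, 0.034 to 0.14 for Hdac3, -0.25 to -0.098 for Kmt2e, 0.13 to 0.36 for Kmt5a, 0.090 to 0.26 for Setd3, -0.39 to -0.11 for Tet1 and -0.23 to -0.028 for Tet2. That limit of 1.5 times was taken from the value over all libraries. Within it lay -1.53 to -0.71 for Dnmt3b, -0.90 to -0.49 for Kmt2a, -0.47 to -0.22 for Nsd1 and -0.51 to -0.28 for Hdac4. Also within it were -0.68 to -0.44 for Setd2, 0.71 to 1.14 for Kdm4d, -0.85 to -0.58 for Setd1a and -0.87 to -0.61 for Sirt4. The same held for -1.07 to -0.87 for Setd7 and 0.39 to 0.53 for Kat8. No paired analysis was possible because replicate numbers follow accession order and the labels pair no libraries. Without Ndp KO replicate 1, Ndp KO replicate 4 or the libraries of highest proliferation sum, the adjusted p of Setd7 by DESeq2 was 0.0670, 0.0845 and 0.231, and the cause was not tested. With 4 pooled libraries per genotype, differences of the size of these SEs were not detectable at this depth and number of libraries, and Dnmt3c lay near the floor of 3 reads.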
